A study of Mus musculus with 2 samples.

Results

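The genes described here encode collagens, laminins and perlecan of the basement membrane: Col4a1, Col4a2, Col4a5, Col15a1, Col18a1, Lama2, Lama5, Lamb1, Lamc1 and Hspg2. They were taken from the gene table by symbol, and all 10 were found among its 32285 genes. Their unique molecular identifiers (UMIs, each standing for 1 captured transcript) were read in cells that had 1000 or more UMIs, 500 or more genes and no more than 20% mitochondrial UMIs. Cells were grouped by marker genes and by library. Whole uterus was dissociated for 5 hours in collagenase, an enzyme that cuts collagen, and captured in droplets with chemistry that reads the 3-prime end of transcripts. One library was a pool of 3 C57BL/6J mice aged 6 months with floxed Prickle1 (Prickle1 f/f, labelled control). The other was a pool of 3 mice of the same strain and age that carried MiC on the same floxed background (Prickle1 f/f MiC, labelled cKO). Both groups thus share the floxed gene. The labels do not explain MiC, the driver of recombination is not given in the sources used here, and both libraries carry wild-type in their genotype field. The question behind the series is how the uterus and its matrix differ once the myometrium lacks Prickle1, which acts in planar cell polarity. With 1 library per group no test between groups is possible, so values carry 95% intervals that cover counting error only, and cells are not replicates.

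Basement membranes are thin sheets that underlie epithelia and endothelia and wrap each smooth muscle cell. Laminins, trimers of an alpha, a beta and a gamma chain, polymerise on the cell surface through integrins and dystroglycan, and type IV collagen forms a second network that perlecan and nidogens bind to the first. In the uterus such sheets lie under the luminal and glandular epithelium, around vessels and around the bundles of myometrial muscle. Col4a1 and Col4a2 encode the chains of the most widespread type IV collagen trimer, and Col4a5 a chain of trimers of more restricted use. Col15a1 and Col18a1 encode the multiplexins, basement membrane collagens with heparan or chondroitin sulphate chains. Lama2 and Lama5 encode alternative laminin alpha chains, known best from muscle and from epithelium or endothelium, and Lamb1 and Lamc1 encode the beta and gamma chains that both can join. Hspg2 encodes perlecan, the large heparan sulphate proteoglycan of these sheets.

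The start regions of the genes whose patterns the results turn on are printed from the RefSeq promoter table (GRCm38.p6), which matched 9 of the 10 genes and gave 10 windows. The first is shown because Col4a1 and Col4a2 had like profiles over cell classes and start back to back on opposite strands of chromosome 8. The RefSeq start of Col4a2 lies at position 11312805 and that of Col4a1 at 11312826. The capitals mark the 22 bases from one start to the other, printed on the plus strand at chr8:11312801-11312830.
Col4a1 and Col4a2 starts: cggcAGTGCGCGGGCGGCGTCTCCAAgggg
The other windows are shown because Lama5 and Lama2, the alternative alpha chains, were read in different cells. Each line holds the 250 bases before the start on the minus strand, at chr2:180225860-180226109 for Lama5 and chr10:27616943-27617192 for Lama2, and capitals mark each GGGCGG (GC box) on either strand.
Lama5 upstream: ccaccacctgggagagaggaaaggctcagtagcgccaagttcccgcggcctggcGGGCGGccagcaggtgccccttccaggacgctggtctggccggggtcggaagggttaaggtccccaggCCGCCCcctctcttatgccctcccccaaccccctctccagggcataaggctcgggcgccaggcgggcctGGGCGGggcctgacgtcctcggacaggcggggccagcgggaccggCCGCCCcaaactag
Lama2 upstream: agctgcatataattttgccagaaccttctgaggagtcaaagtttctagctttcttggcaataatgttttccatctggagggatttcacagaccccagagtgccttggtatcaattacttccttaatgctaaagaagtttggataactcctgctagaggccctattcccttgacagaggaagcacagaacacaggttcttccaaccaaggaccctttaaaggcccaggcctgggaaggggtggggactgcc
The Lama5 stretch held 4 GC boxes and the Lama2 stretch held none. The Lama2 stretch precedes the RefSeq start but lies inside the longer span that GENCODE gives the gene, so it is not upstream of every annotated start. In windows of 250 bases before to 50 after the start, searched on both strands, 8 of the 9 matched genes held GGGCGG, 5 held CCAAT and 0 held TATAAA, and a base could count toward more than 1 motif. The 1 GC box of Col4a1 is the same site as 1 of the 3 of Col4a2. That of Lama2 lies 17 bases after its start, outside the printed stretch. Of all 32851 windows in the table, 35.7% held GGGCGG, 37.4% held CCAAT and 13.6% held TATAAA. The matches are letters in a window and were not tested for use. Col18a1 has 2 start windows in the table, and reads from the 3-prime end cannot tell which start was used.

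In the GENCODE vM21 annotation (GRCm38) Col4a1 spans chr8:11198423-11312826 on the minus strand and Col4a2 chr8:11312805-11449287 on the plus strand, so their 5-prime ends overlap. Col4a5 lies at chrX:141475385-141689234, Col15a1 at chr4:47208161-47313167 and Col18a1 at chr10:77052178-77166548. Among the laminins, Lama2 lies at chr10:26980036-27619758, Lama5 at chr2:180176373-180225859, Lamb1 at chr12:31265234-31329644 and Lamc1 at chr1:153218922-153332786. Hspg2 lies at chr4:137468769-137570630. The 3-prime ends, which this kit reads, lie at opposite ends of the Col4a1 and Col4a2 pair.

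The library labelled control held 45035801 UMIs and 3489 cells, and the library labelled cKO 34261441 UMIs and 3583 cells, with medians of 4951 and 4898 UMIs per cell. They shared 6 cell barcodes. The 11 named classes differed in share between libraries: epithelium-like cells made up 37.6% of the library labelled control against 3.04% of the library labelled cKO, fibroblast-like cells 24.4% and 37.4%, and smooth muscle-like cells 9.03% and 19.0%. Digestion and capture set these shares as well as the tissue, and their parts cannot be told apart. The markers of each class compared were present in it in both libraries, except Ncr1, at 0 in T or NK cell-like cells of the library labelled control, and the lymphatic endothelium-like cluster also held vascular markers (2551 and 2343 CPM in sum, against 11517 and 5820 CPM for lymphatic markers). At the clustering resolution of 1 used here no cluster could be named pericyte or vascular endothelium. At resolution 2 a cluster of 9 and 28 cells was named vascular endothelium-like, and the lymphatic endothelium-like cluster held 22 and 74 cells. Prickle1 gave 14 UMIs (14.4 CPM) in smooth muscle-like cells of the library labelled control and 51 UMIs (24.3 CPM) in those of the library labelled cKO, so the targeted gene was not lower where the label would place its loss. The ratio of CPM, cKO over control, was 1.69 there (0.92 to 3.31). It was 2.04 (1.43 to 2.94) in fibroblast-like cells and 0.67 (0.27 to 1.80) in lymphatic endothelium-like cells. Over all cells, whose class mix differed, Prickle1 gave 96 and 264 UMIs. Whether the counted 3-prime end lies outside the floxed part is not given in the sources used here, and in that case its count checks nothing. Directions below are therefore between the libraries as labelled.

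Levels are UMIs summed over the cells of a class in a library and given in CPM, the count scaled to 1000000 UMIs of that class. Fibroblast-like cells supplied the largest share of the UMIs of 9 of the 10 genes in both libraries, Lama5 being the exception. Of the Col4a1 UMIs they gave 86.1% in the library labelled control against 88.6% in the library labelled cKO, while holding 25.5% and 54.9% of all UMIs in cells. Lama2 was the most concentrated in them, at 94.8% and 97.1% of its UMIs. Lamc1 and Col18a1 were the least concentrated in the library labelled control. Lamc1 drew 49.0% of its UMIs there from fibroblast-like and 37.5% from epithelium-like cells. Col18a1 drew 42.2% of its UMIs from fibroblast-like cells in the library labelled control against 87.4% in the library labelled cKO. Lama5 stood apart, since epithelium-like cells gave 97.5% of its UMIs in the library labelled control against 70.0% in the library labelled cKO. Of a gene's UMIs, between 0.12% (Lama2) and 14.1% (Lama5) came from smooth muscle-like cells, both in the library labelled cKO.

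**Figure D1:**
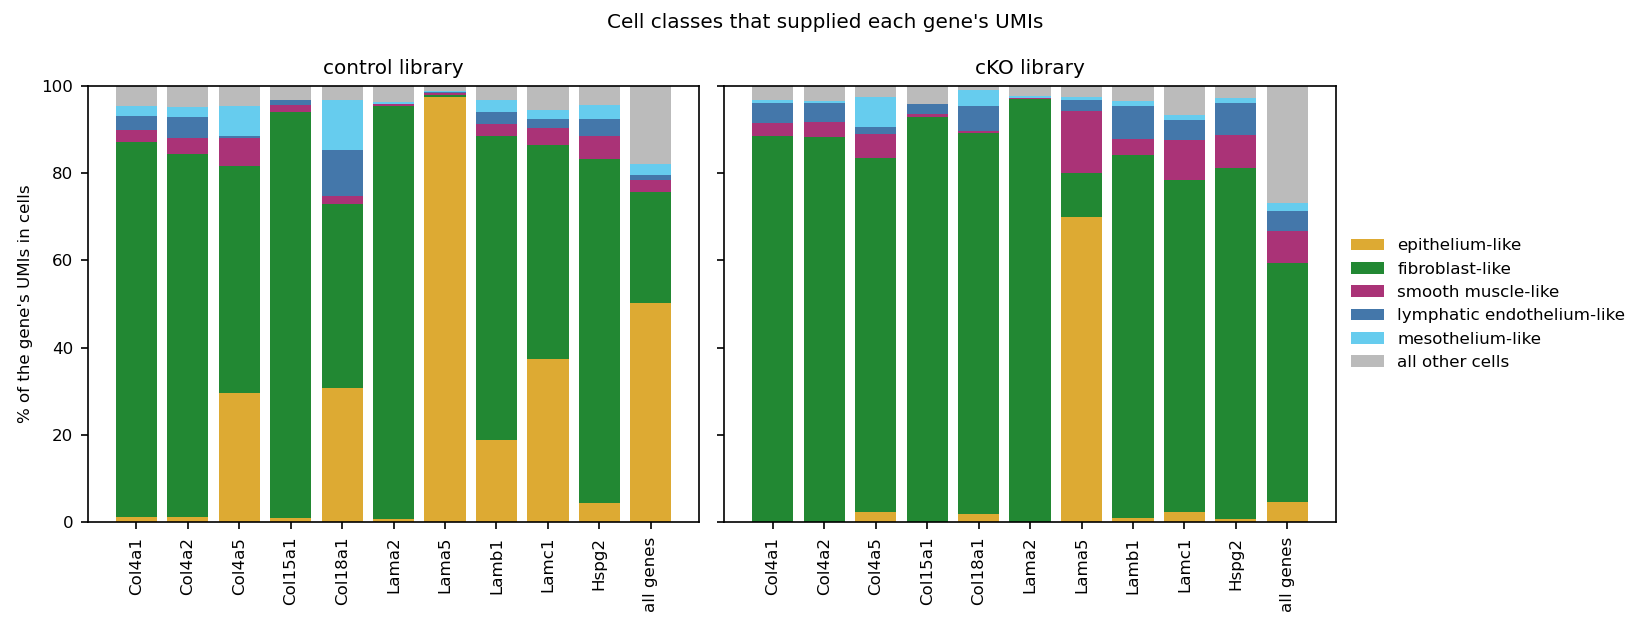
Share of each gene's UMIs in cells (y axis, percent) that came from each cell class, for the 10 genes and for all genes together, in the library labelled control (left) and the library labelled cKO (right). Fibroblast-like cells give the largest part of the bar for genes other than Lama5, from 42.2% of Col18a1 in the library labelled control upward. The UMIs of Lama5 came to 97.5% and 70.0% from epithelium-like cells.

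Col4a1 and Col4a2, the main type IV collagen chains, were read in fibroblast-like, lymphatic endothelium-like, smooth muscle-like and mesothelium-like cells, and hardly in epithelium-like cells. Col4a1 stood at 756 CPM (739 to 774) in fibroblast-like cells of the library labelled control and 1084 CPM (1068 to 1100) in those of the library labelled cKO. It stood at 602 CPM (533 to 678) and 669 CPM (627 to 714) in lymphatic endothelium-like cells. Smooth muscle-like cells held 241 CPM (211 to 274) and 269 CPM (247 to 292). Mesothelium-like cells, at 203 CPM (175 to 234) and 234 CPM (196 to 278), overlapped with smooth muscle-like cells in their intervals, while the steps up to lymphatic endothelium-like and on to fibroblast-like cells exceeded counting error in both libraries. Epithelium-like cells held 4.82 CPM (3.88 to 5.91) and 3.71 CPM (1.21 to 8.66). At least 1 Col4a1 UMI was found in 77.8% and 85.2% of fibroblast-like cells, against 1.49% and 3.28% of T or NK cell-like cells, which should lack the gene. Median depth was 9397 and 10079 UMIs in the former and 4098 and 3551 UMIs in the latter. After each cell was thinned to 1000 UMIs the shares were 42.5% and 50.9% in fibroblast-like cells, and 0% and 0.875% among the T or NK cell-like ones. The classes thus differed at equal depth too.

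Col4a2 followed the same order of classes up to the top, where lymphatic endothelium-like cells of the library labelled control held 319 CPM (269 to 375) and fibroblast-like cells 263 CPM (253 to 274), with intervals that overlap. In the library labelled cKO the order of these classes was the other way round, at 230.4 CPM (206 to 257) and 387 CPM (377 to 397). Smooth muscle-like cells stood at 116 CPM (95.6 to 139) and 117 CPM (103 to 132). The balance of the pair was steady in fibroblast-like cells: Col4a1 made up 74.2% (73.3 to 75.0) of the UMIs of both genes in the library labelled control against 73.7% (73.1 to 74.3) in the library labelled cKO. Its share in smooth muscle-like cells was 67.5% (62.3 to 72.4) and 69.8% (66.5 to 72.9). In lymphatic endothelium-like cells it was 65.4% (60.7 to 69.9) and 74.4% (71.9 to 76.8), the one class of these with no overlap between libraries. The printed start region is common to both genes, which share 78 bases between their promoter windows. Over 21 sums (11 classes by library, leaving out any with under 20 cells) log2 levels of the pair had a Pearson r of 0.94, given as a description, since sums of 1 library share its depth and free RNA.

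Col4a5, on the X chromosome, was read in smooth muscle-like, fibroblast-like and mesothelium-like cells and was near the limit of counting in immune classes. It gave 27.7 CPM (18.3 to 40.3) and 11.9 CPM (7.71 to 17.6) in smooth muscle-like cells, from 27 and 25 UMIs. Fibroblast-like cells held 22.8 CPM in both libraries (218 and 366 UMIs). Mesothelium-like cells held 31.0 CPM (20.8 to 44.5) and 55.4 CPM (37.6 to 78.6), the highest named class in both libraries, though in the library labelled control its interval overlaps with those of smooth muscle-like and fibroblast-like cells. Epithelium-like cells held 6.56 CPM (5.46 to 7.82) and 8.16 CPM (4.08 to 14.6).

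The multiplexins Col15a1 and Col18a1 were placed differently. Col15a1, whose product lies at the outer face of basement membranes toward the stroma, was highest in fibroblast-like cells, at 182 CPM (173 to 191) in the library labelled control against 150 CPM (144 to 156) in the library labelled cKO. Lymphatic endothelium-like cells held 50.2 CPM (31.8 to 75.3) and 43.0 CPM (32.8 to 55.5), and the 31 neutrophil-like cells of the library labelled cKO held 80.1 CPM (29.4 to 174) from 6 UMIs. Smooth muscle-like cells held 27.7 CPM (18.3 to 40.3) and 7.62 CPM (4.36 to 12.4). Col18a1, the precursor of endostatin, was highest in lymphatic endothelium-like cells of the library labelled control, at 93.8 CPM (67.9 to 126) against 61.3 CPM (48.9 to 75.8) in the library labelled cKO. Mesothelium-like cells held 49.2 CPM (36 to 65.6) and 96.4 CPM (72.4 to 126). Fibroblast-like cells held 17.8 CPM (15.2 to 20.7) and 79.2 CPM (74.9 to 83.7). They stood below both of those classes in the library labelled control and between them, with intervals that overlap, in the library labelled cKO. Its level in smooth muscle-like cells rested on 7 UMIs in each library.

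Lama2 and Lama5, the alternative alpha chains, were read in almost separate cells. Lama2, whose loss causes congenital muscular dystrophy, stood at 30.7 CPM (27.3 to 34.4) and 50.4 CPM (47.0 to 54.0) in fibroblast-like cells. Smooth muscle-like cells held 1 Lama2 UMI in each library, 1.03 CPM (0.026 to 5.72) and 0.477 CPM (0.0121 to 2.66), so the gene was near the limit of counting there. Epithelium-like cells held 2 and 0 UMIs, where 3 counts, taken as the limit that 0 allows, would be 2.23 CPM in the library labelled cKO. A Lama2 UMI was found in 22.4% and 33.8% of fibroblast-like cells, and in 3.17% and 4.85% after thinning, against 0% and 0.875% of T or NK cell-like cells without thinning.

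Lama5 stood at 478 CPM (468 to 488) in epithelium-like cells of the library labelled control, from 9038 UMIs, and at 258 CPM (232 to 287) in those of the library labelled cKO, from 348 UMIs. At least 1 UMI was found in 87.9% and 59.6% of these cells, and in 51.1% and 27.5% after thinning. Smooth muscle-like cells came next in both libraries, with 43.1 CPM (31.1 to 58.3) and 33.4 CPM (26.0 to 42.1). Fibroblast-like cells, the main source of the other chains, held 4.92 CPM (3.62 to 6.54) and 3.11 CPM (2.31 to 4.10). Immune classes that should lack the gene held it in the library labelled control and hardly in the other: dendritic cell-like cells gave 30.8 and 3.16 CPM, T or NK cell-like cells 19.2 and 1.07 CPM, and macrophage or monocyte-like cells 6.63 and 0 CPM (18 and 0 UMIs). Droplets without cells held 256 CPM (233 to 281) of Lama5 in the library labelled control against 15.3 CPM (8.88 to 24.4) in the library labelled cKO. The epithelial markers moved with them in dendritic cell-like cells, where all 8 were lower and their sum went from 863 to 165 CPM. With free RNA subtracted, the log2 ratio of Lama5 between libraries went from -2.0 to -0.26 in T or NK cell-like cells and from -2.13 to -1.51 in dendritic cell-like cells. The share subtracted was estimated in T or NK cell-like cells and not in dendritic cell-like cells.

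Lamb1 and Lamc1 encode the beta and gamma chains that both alpha chains can join. Lamb1 stood at 111 CPM (105 to 118) and 129 CPM (123 to 134) in fibroblast-like cells, 91.7 CPM (66.1 to 124) and 135 CPM (116 to 156) in lymphatic endothelium-like cells and 45.2 CPM (32.8 to 60.6) and 44.8 CPM (36.2 to 54.8) in smooth muscle-like cells. The first of these classes did not differ from the second beyond counting error in either library. Lamc1 stood at 220.2 CPM (211 to 230) and 247 CPM (240 to 255) in fibroblast-like cells, and at 171 CPM (146 to 199) and 226 CPM (206 to 248) in smooth muscle-like cells. It was also present in epithelium-like cells, at 85.3 CPM (81.2 to 89.6) and 89.1 CPM (73.8 to 107), and in macrophage or monocyte-like cells, at 51.2 CPM (43.0 to 60.5) and 56.6 CPM (45.9 to 69.1). Even T or NK cell-like cells held 33.9 CPM (22.9 to 48.4) and 39.1 CPM (30.6 to 49.1), and 11.9% and 10.1% of them had a UMI.

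Hspg2, the gene of perlecan, had a profile over classes close to that of Lamb1. It stood at 259.7 CPM (215 to 311) and 297 CPM (269 to 327) in lymphatic endothelium-like cells and 253 CPM (243 to 263) and 275 CPM (267 to 283) in fibroblast-like cells, a pair of classes that did not differ beyond counting error. Smooth muscle-like cells held 167 CPM (143 to 195) and 199 CPM (181 to 219), and mesothelium-like cells 106 CPM (86.0 to 129) and 105 CPM (80.2 to 136). Of the 8 classes plotted, epithelium-like cells were the one in which the libraries differed most, at 7.20 CPM (6.04 to 8.51) and 31.2 CPM (22.5 to 42.1).

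**Figure D2:**
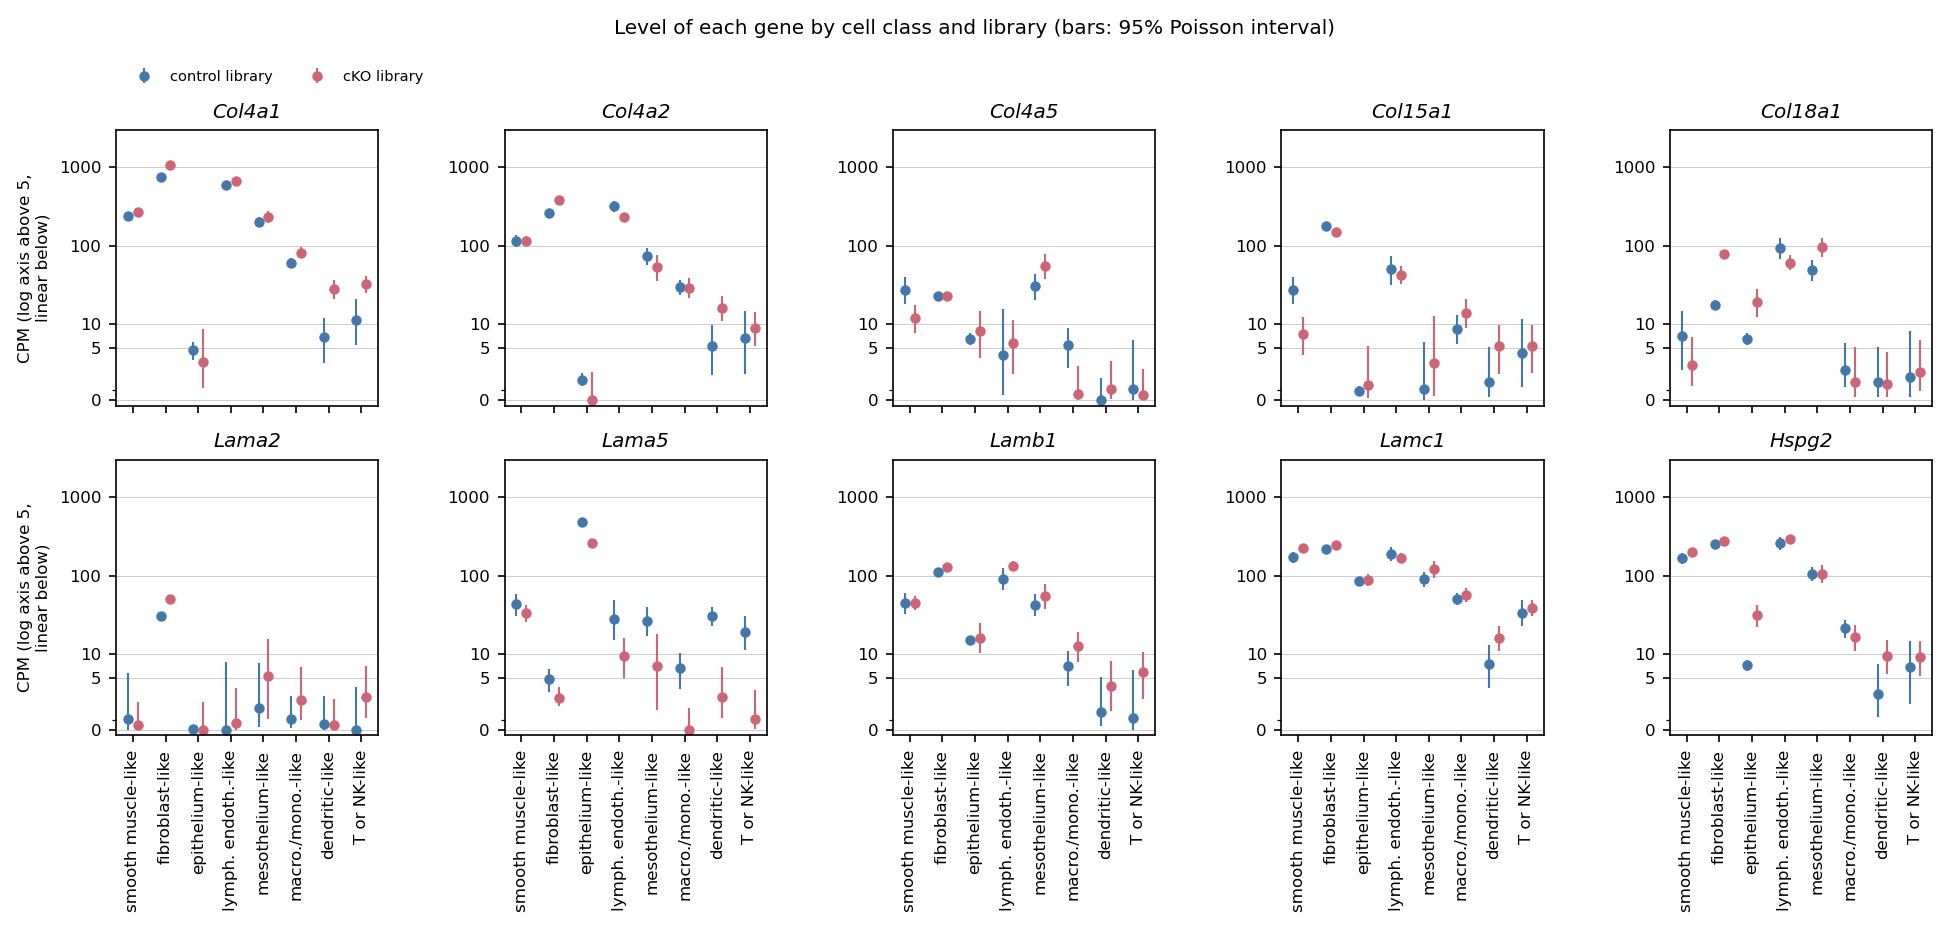
Level of each of the 10 genes (y axis, CPM, logarithmic above 5 and linear below) in 8 cell classes (x axis) of the library labelled control (blue) and the library labelled cKO (red); points are summed UMIs and bars are 95% Poisson intervals. Col4a1 reaches 756 and 1084 CPM in fibroblast-like cells, and Lama5 reaches 478 and 258 CPM in epithelium-like cells and stays under 50 CPM in the other classes plotted.

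The first comparison between libraries was in smooth muscle-like cells, the class that the targeted tissue is made of. Ratios are log2 of CPM plus 5, cKO over control, which understates changes of low genes, and a gene counts as kept when its mean over both libraries is at least 10 CPM. Of the 10 genes 8 were kept, 0 were past 2-fold higher and 1, Col15a1, was past 2-fold lower, where 3.25% of 8177 kept genes were past 2-fold higher and 1.71% past 2-fold lower (4.97% in all). At 1.5-fold 2 of the 10 were past the limit, where 25.5% of kept genes were. Under the alternatives given below, the count past 2-fold went from 0 to 2. The median over all 10 was -0.07 and that over the 8 kept was -0.0008, beside 0.20 over all kept genes. The 10 genes together made up 0.0848% and 0.0913% of the UMIs of the class.

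As summed over this class, the network-forming collagen pair did not differ beyond counting error: the ratio was 0.16 for Col4a1 (-0.06 to 0.38) and 0.01 for Col4a2 (-0.31 to 0.33). With cells thinned to 1000 UMIs the ratios were -0.44 and -0.50, outside these intervals. Their sign was kept in 10 and 9 of 13 alternatives. Within clusters both signs occurred. Cluster 12, a shallow one led by Actg2, Pcp4 and Acta2, had 220 and 138 CPM of Col4a1 (-0.65, -1.11 to -0.19), and cluster 17, led by Flrt1, Tmem200a and Myh11, had 192 and 257 CPM (0.41, 0.08 to 0.75). Col4a2 went with it, at -0.76 (-1.46 to -0.06) and 0.28 (-0.15 to 0.73). The summed ratio of the class thus averages over clusters that differ in direction. Cluster 24, led by Cacnb2 and Prune2, held 12 and 88 cells and had 585 and 491 CPM of Col4a1.

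Lamc1 was the one chain of the 10 that was higher in this class beyond counting error, at 0.39 (0.14 to 0.65). It was above 0 in both clusters with enough cells, at 0.18 (-0.43 to 0.81) in cluster 12 and 0.55 (0.23 to 0.88) in cluster 17. Hspg2 stood at 0.24 (-0.01 to 0.51), Lamb1 at -0.01 (-0.49 to 0.48) and Lama5 at -0.33 (-0.83 to 0.19), none of which differed beyond counting error. The median over all kept genes of the class, 0.20, lay inside the Lamc1 interval.

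Col4a5 and Col15a1 were lower. The Col4a5 ratio was -0.95 (-1.58 to -0.29), with -1.21 (-2.34 to 0.13) in cluster 12 and -1.02 (-1.82 to -0.17) in cluster 17. The Col15a1 ratio was -1.37 (-2.01 to -0.69), from 27 UMIs against 16. Of the 27 UMIs, 23 came from cluster 12, which had 61.6 CPM in the library labelled control against 5.68 CPM in the library labelled cKO, while cluster 17 had 5.94 and 8.39 CPM. Fibroblast markers moved in the same direction in the class: 5 of 7 were lower, their sum went from 815 to 522 CPM, and Pi16 was at 0 in the library labelled control. Smooth muscle markers were lower too, 6 of 9 of them, with a sum of 11207 CPM in the library labelled control against 7356 CPM in the library labelled cKO. The part of stromal RNA in the Col15a1 difference was not tested.

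**Figure D3:**
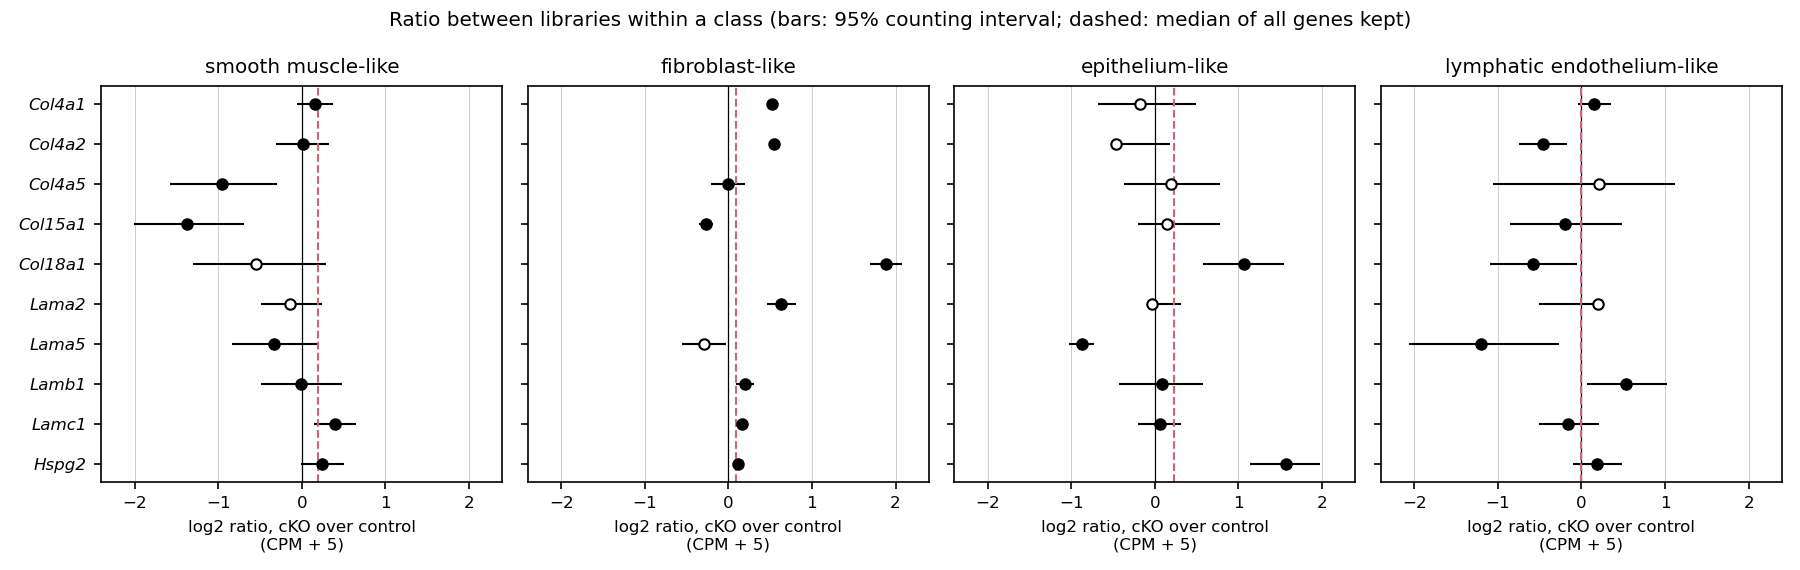
Ratio of each gene between libraries (x axis, log2 of CPM plus 5, cKO over control) in 4 cell classes, with 95% counting intervals; filled points are genes with a mean of at least 10 CPM, open points lower ones, and the dashed line is the median of all kept genes. In fibroblast-like cells Col18a1 lies at 1.89 and Col15a1 at -0.27, and in smooth muscle-like cells Col15a1 lies at -1.37.

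In fibroblast-like cells, the class with the most UMIs of these genes, both main type IV collagen chains, Col18a1 and Lama2 were higher in the library labelled cKO and Col15a1 was lower. Of the 10 genes 9 were kept, 1 (Col18a1) was past 2-fold higher and 0 past 2-fold lower, where 1.47% of 7813 kept genes were past 2-fold higher and 0.666% past 2-fold lower (2.14% in all). At 1.5-fold 2 of the 10 were past the limit, where 7.53% of kept genes were. The median of the 10 was 0.18 and that of the 9 kept was 0.20, beside 0.09 over all kept genes. Together they took 0.186% of the class's UMIs in the library labelled control against 0.243% in the library labelled cKO. These classes were built from different clusters: cluster 14 was the largest in the library labelled control (239 of 851 cells) and cluster 10 in the library labelled cKO (456 of 1339 cells), the latter led by Ptx3, Thbd and Has2, with Tnfaip6 and Il1rl1 among its leading inflammatory genes.

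Col4a1 was higher by a log2 ratio of 0.52 (0.48 to 0.56) and Col4a2 by 0.55 (0.48 to 0.61). Col4a1 was above 0 in 4 of 6 clusters, and the range ran from -0.27 in cluster 9 to 0.61 in cluster 23. Cluster 10 had 722 and 1062 CPM of Col4a1 (0.55, 0.49 to 0.62), cluster 4 had 964 and 1118 CPM (0.21, 0.13 to 0.30), and cluster 9 had 684 and 565 CPM (-0.27, -0.39 to -0.15). Col4a2 was above 0 in 5 of 6 clusters. The direction was held by most but not all fibroblast-like clusters. With each cluster weighted equally, the mean ratio was 0.17 for Col4a1 and 0.16 for Col4a2. Cluster 23 drew 93.0% of its cells from the library labelled cKO. It gave 38.8% of the class's Col4a1 UMIs and 44.3% of its Col4a2 UMIs in that library, against 4.08% and 6.04% in the library labelled control.

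The Col18a1 ratio was 1.89 (1.70 to 2.07), the largest of the 10 in this class. It rested on cluster 23, led by Dio2 and Aldh1a2, which held 20 of 851 fibroblast-like cells (2.35%) in the library labelled control and 264 of 1339 (19.7%) in the library labelled cKO. This cluster gave 30 of 170 Col18a1 UMIs (17.6%) in the former and 1117 of 1274 (87.7%) in the latter. Within it Col18a1 stood at 90.3 CPM (60.9 to 129) and 224 CPM (211 to 237), which gives a log2 ratio of 1.26 (0.77 to 1.80). Outside it the levels differed by less than counting error: cluster 4 had 12.1 and 12.3 CPM, cluster 10 had 15.2 and 14.2 CPM, and cluster 11 had 39.9 and 30.9 CPM. Without clusters drawn over 90% from 1 library the ratio was -0.08. A cluster with over 90% of its cells from 1 library can stand for the library instead of a kind of cell.

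Lama2 was higher by 0.63 (0.46 to 0.81), and this ratio was spread over clusters. It was above 0 in 5 of 6, at 0.79 (0.34 to 1.23) in cluster 9, 0.51 (0.23 to 0.79) in cluster 10 and 0.97 (0.17 to 1.84) in cluster 23, with -0.15 (-0.73 to 0.41) in cluster 11, where the level was highest at 82.4 and 73.5 CPM. Col15a1 was lower, at -0.27 (-0.36 to -0.18). The lower level lay in cluster 11, led by Col3a1, Col1a1 and Mmp2, with 512 and 331 CPM (-0.62, -0.89 to -0.37), and in cluster 14, with 205 and 113 CPM (-0.83, -1.41 to -0.29), while cluster 4 went the other way with 139 and 182 CPM (0.38, 0.17 to 0.59), as did cluster 9 with 112 and 138 CPM (0.29, 0.03 to 0.55).

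The shared laminin chains and perlecan differed by less. The ratio was 0.20 (0.10 to 0.30) for Lamb1, 0.16 (0.09 to 0.24) for Lamc1 and 0.12 (0.05 to 0.19) for Hspg2. These lie close to the median of all kept genes, 0.09. Col4a5 differed by less than counting error, at -0.00 (-0.21 to 0.20). Lama5 was not kept, with 47 and 50 UMIs. Smooth muscle markers in the class summed to 738 and 678 CPM and epithelial markers to 40.4 and 11.5 CPM, with all 8 of the latter lower in the library labelled cKO.

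**Figure D4:**
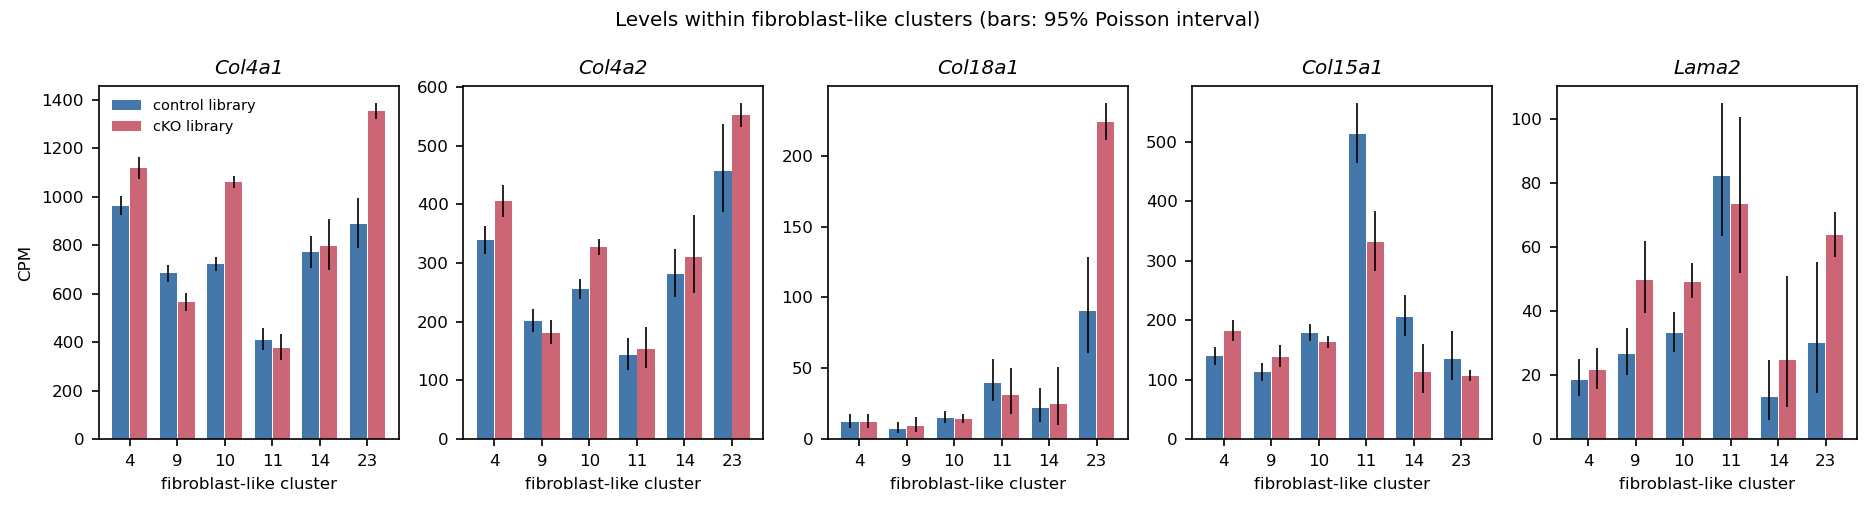
Level (y axis, CPM, from 0, each panel on its own scale) of 5 of the genes in the 6 fibroblast-like clusters (x axis, cluster number) of each library, with 95% Poisson intervals. The Col18a1 bar of cluster 23 in the library labelled cKO reaches 224 CPM, while its bars outside that cluster stay at 40 CPM or below, and Col15a1 is highest in cluster 11.

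Epithelium-like cells numbered 1312 and 109, so the library labelled cKO had 1347282 UMIs in this class against 18898632. Of the 10 genes 5 were kept, with 2 past 2-fold higher and 0 past 2-fold lower, where 12.2% and 7.32% of 7953 kept genes were past those limits. The largest cluster of the class differed: cluster 0, led by Prap1 and Sprr1a, in the library labelled control (609 of 1312 cells), and cluster 7, led by Sprr2f and Sprr1a, in the library labelled cKO (82 of 109 cells). Lcn2, an acute-phase gene, was among the leading genes of clusters 5, 6 and 7.

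Lama5, the alpha chain of mature epithelial basement membranes, was lower at -0.88 (-1.03 to -0.72). In the library labelled control it stood at 1267 CPM in cluster 0, 799 CPM in cluster 5, 368 CPM in cluster 6 and 242 CPM in cluster 7. In the library labelled cKO it stood at 729 CPM in the 26 cells of cluster 0 and 200 CPM in cluster 7. Within cluster 7, which both libraries filled with over 80 cells, the ratio was -0.27 (-0.47 to -0.07), and within cluster 0 it was -0.79 (-1.09 to -0.51). The direction thus held within both clusters that had at least 20 cells in each library, and the difference in cluster 7 was smaller than that of the class.

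Hspg2 was higher in epithelium-like cells at 1.57 (1.14 to 1.97), from 136 and 42 UMIs, with 1.52 in cluster 0 and 1.62 in cluster 7. Col18a1 was higher at 1.07 (0.58 to 1.55), from 124 and 26 UMIs, and its direction turned (-0.073) with cells thinned to 1000 UMIs. Free RNA of Hspg2 was also higher in the library labelled cKO, with 35.2 and 95.1 CPM in droplets without cells. Those droplets held 6.35 CPM (3.17 to 11.4) and 17.0 CPM (10.3 to 26.6) of Col18a1, with intervals that overlap. Smooth muscle markers in the class summed to 78.5 and 281 CPM, with 7 of 9 higher, and fibroblast markers to 34.5 and 9.65 CPM, with 6 of 7 lower. Under the 13 alternatives, free RNA subtraction among them, Hspg2 kept its direction in all (0.91 to 1.97). Col18a1 kept its direction in 12 of 13, all but the thinned cells. What the markers of other classes contribute to the 2 ratios was not tested. Lamb1 at 0.08 (-0.43 to 0.58) and Lamc1 at 0.06 (-0.21 to 0.31) did not differ beyond counting error.

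Lymphatic endothelium-like cells were few, 31 and 102. At resolution 2 this class held 22 and 74 cells, beside 9 and 28 vascular endothelium-like cells, so vascular cells may be among those compared here. At that resolution the Col15a1 ratio was 1.13 instead of -0.20, and the Col18a1 ratio was -1.22. Of the 10 genes 8 were kept, 0 were past 2-fold higher and 1 past 2-fold lower, where 7.37% and 7.27% of 7733 kept genes were past those limits. Lamb1 was higher at 0.53 (0.06 to 1.02). Col4a2 was lower at -0.46 (-0.74 to -0.17) with Col4a1 at 0.15 (-0.04 to 0.35), which is the shift in the pair's balance given above, and Col18a1 was lower at -0.58 (-1.09 to -0.05). Lama5 was past 2-fold lower at -1.20 (-2.07 to -0.27), from 13 UMIs in each library. Its direction turned in a finer clustering (1.13) and when cells with the highest doublet scores were removed (0.26). All 8 epithelial markers were lower in this class, from a sum of 122 to 10.2 CPM, and all 7 fibroblast markers were higher, from 186 to 513 CPM, and their part was not tested.

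In mesothelium-like cells (81 and 31), 8 genes were kept, 0 were past 2-fold higher and 1 past 2-fold lower, where 4.13% and 2.37% of 8404 kept genes were past those limits. Col18a1 was higher at 0.91 (0.35 to 1.46) and Col4a5 at 0.75 (0.05 to 1.43). Lama5 was lower at -1.39 (-2.31 to -0.29), from 25 and 4 UMIs, and its direction turned (2.90) with cells thinned to 1000 UMIs. This class carried fibroblast markers at 9085 and 12057 CPM and the cluster's leading genes included Krt8 beside Upk3b and Msln.

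Among immune classes, 5 of the 10 genes were kept in macrophage or monocyte-like cells, 4 in dendritic cell-like and 3 in T or NK cell-like cells. In macrophage or monocyte-like cells 0 were past 2-fold, where 3.35% of 7075 kept genes were in either direction, and Col4a1 was higher at 0.41 (0.10 to 0.72). Dendritic cell-like cells had 2 past 2-fold higher, Col4a1 at 1.48 (0.85 to 2.06) and Col4a2 at 1.06 (0.37 to 1.66), and 1 lower, Lama5 at -2.13 (-2.62 to -1.49), where 2.81% and 3.48% of 7042 kept genes were past those limits. T or NK cell-like cells had Col4a1 at 1.21 (0.46 to 1.93) and Lama5 at -2.0 (-2.35 to -1.21), where 1.83% and 1.31% of 8259 kept genes were past 2-fold higher and lower. Droplets without cells differed in the same directions, with 55.4 and 188 CPM of Col4a1 and 256 and 15.3 CPM of Lama5. Smooth muscle markers (9 of 9 higher, 98.4 to 201 CPM in sum) and fibroblast markers (6 of 7 higher, 276 to 450 CPM) also differed in T or NK cell-like cells, and epithelial markers were lower (7 of 8, 76.9 to 10.7 CPM). In dendritic cell-like cells 6 of 7 fibroblast markers were higher (131 to 238 CPM). With free RNA subtracted the Col4a1 ratio was 0.32 for T or NK cell-like cells. For dendritic cell-like cells it was 0.46, and 0.23 without the highest doublet scores. The Col4a1 level in T or NK cell-like cells was 11.3 and 32.7 CPM, where free RNA at the share estimated in this class would give 3.97 and 22.9 CPM. Of the 61 Col4a1 UMIs of the class in the library labelled cKO, 57 lay in cluster 21 (79.4 CPM) and 4 in cluster 8 (3.48 CPM). Their origin was not tested. In dendritic cell-like cells the Col4a2 ratio was -0.15 once cells with the highest doublet scores were removed.

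Summed over all cells, 5 of the 10 genes were past 2-fold higher in the library labelled cKO and 1 past 2-fold lower, where 5.36% and 7.39% of 8754 kept genes were past those limits. The ratio was 1.56 for Col4a1 (224 and 672 CPM), 1.52 for Col4a2, 1.80 for Col18a1, 1.34 for Lama2 and 1.15 for Hspg2, and -3.52 for Lama5 (247 and 17.0 CPM). When the levels of the library labelled cKO were weighted by the class mix of the library labelled control, the ratios were 0.48, 0.44, 1.29, 0.47 and 0.28 for the same 5 genes and -0.88 for Lama5. Col18a1 alone remained past 2-fold at that mix, and Col15a1 turned from 0.78 to -0.21. The weighting fixes the mix of classes and not that of clusters within a class. Cluster 23 gave 87.7% of the fibroblast-like Col18a1 UMIs in the library labelled cKO. Outside epithelium-like cells, Col4a1 stood at 0.65 (0.62 to 0.69), Col18a1 at 1.49 (1.35 to 1.64) and Col15a1 at -0.09 (-0.17 to -0.01). The ratios at a common mix were closer to 0 than those over whole libraries for all 10 genes.

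**Figure D5:**
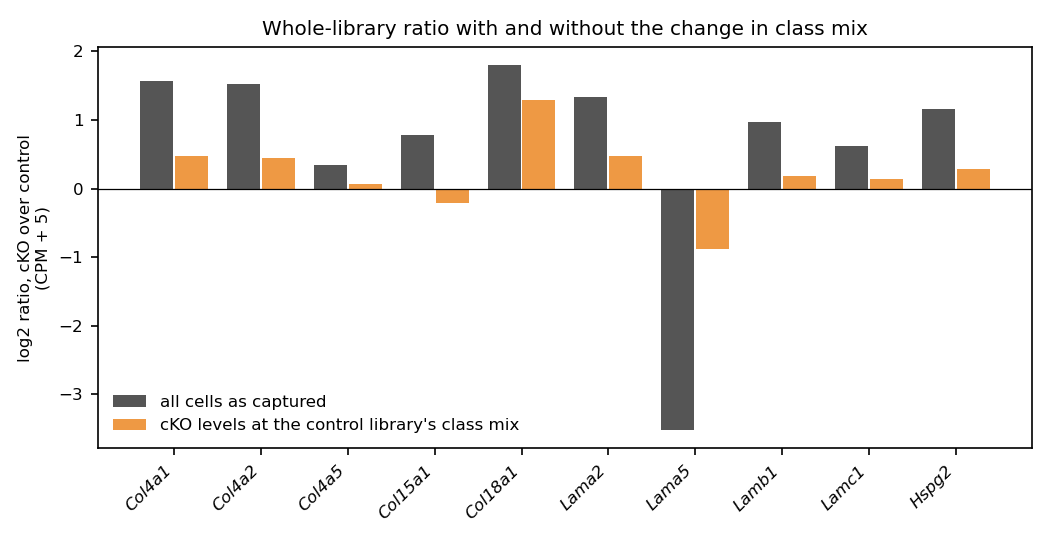
Ratio of each gene over all cells (y axis, log2 of CPM plus 5, cKO over control) as captured (grey) and with the levels of the library labelled cKO weighted by the class mix of the library labelled control (orange). The bars of Col4a1 go from 1.56 to 0.48 and those of Lama5 from -3.52 to -0.88.

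Over the 21 class sums, Col4a1, Col4a2, Lamb1 and Hspg2 had the closest profiles and Lama5 stood apart. Pearson r of log2 levels was 0.95 for Lamb1 with Hspg2, 0.93 for Col4a1 with Hspg2 and 0.91 for Col4a1 with Lamb1. Lama5 had r between -0.37 (with Lama2) and 0.23 (with Lamc1). These describe classes of 2 libraries and carry no test. The gene most like each one among 8736 was Colec12 for Col4a1 (0.949), Col4a1 for Col4a2 (0.938), Sgce for Col4a5 (0.941), Mef2a for Col15a1 (0.863) and Mras for Col18a1 (0.936). It was Htra3 for Lama2 (0.940), Proser2 for Lama5 (0.926), Pprc1 for Lamc1 (0.942), and Lamb1 and Hspg2 for each other (0.949). Of the next 2, those reported here were Col4a2 and Pkd2 for Col4a1, Igfbp5 and Hoxd8 for Col4a2, Smo and Flnc for Col4a5, Adgra2 and Snai1 for Col15a1 and Smad6 and Cachd1 for Col18a1. They were Ctsk and Mfap4 for Lama2, Eppk1 for Lama5, Klf9 and Amotl1 for Lamb1, Nmd3 and Mex3d for Lamc1 and Samd4 and Rhoj for Hspg2.

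The other genes of the pathway were counted in 4 lists. In smooth muscle-like cells, 28 genes of these lists were kept and 0 were past 2-fold in either direction. The lowest were Sparc (349 and 178 CPM, -0.95, -1.17 to -0.74), a collagen-binding protein, and Lama4 (-0.93), the alpha chain of vessels and smooth muscle. Pxdn, which crosslinks type IV collagen, stood at -0.29 and the sarcoglycan Sgcb at -0.51. Highest were Smoc2 at 0.80, the lysyl hydroxylase Plod3 at 0.68, the laminin receptor Itga3 at 0.59 and, among chains, Lamb2 at -0.06 (-0.58 to 0.48).

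In fibroblast-like cells, the chains Col4a3 (7.12 and 19.5 CPM, 1.01), the components Smoc2 (24.6 and 109 CPM, 1.95) and, named after its value was seen, Smoc1 (1.01), and the laminin receptor Itga6 (5.34 and 34.3 CPM, 1.93) were past 2-fold higher, and 0 genes of the 4 lists were past 2-fold lower. Of the 10 genes for collagen folding and crosslinking 8 were above 0, where 65.1% of all kept genes were, with a median of 0.30 beside 0.09 over all kept genes. Serpinh1, the collagen chaperone HSP47, led them with 1116 and 1948 CPM (0.80, 0.77 to 0.83). Their summed share of the class's UMIs went from 0.274% to 0.387%. The lowest of the lists other than the chains were Sparc at -0.18, Pxdn at -0.15 and the collagen receptor Ddr1 at -0.38.

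Among epithelium-like cells the other chains included Lama3, the alpha chain of anchoring laminin, which was past 2-fold lower like no other chain of its list (187 and 39.3 CPM, -2.12, -2.48 to -1.77), and Lamb2 was highest at 0.68. The receptor Bcam, which binds Lama5, was higher at 2.33 (21.9 and 129.9 CPM), while the collagen receptor Itga2 was lower at -1.18. Npnt, a ligand of integrins, was higher at 2.08 and Agrn lower at -0.58, and Serpinh1 was higher at 1.96 and P4ha2, a prolyl hydroxylase, lower at -1.26. Plod3, named after its value was seen, was higher at 1.03. In this class 19.5% of all kept genes were past 2-fold in either direction, and 4 of the 25 kept genes of the lists were higher and 3 lower.

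Lymphatic endothelium-like cells had Tinagl1 lower at -1.12 (309.9 and 140.0 CPM), Plod1 at -1.18 and Sgcb at -1.38, and Plod2 higher at 1.27. Lamb2 was the highest chain at -0.34 and Itga3 the highest receptor at 0.81, from 3 and 21 UMIs. Fbln1, a matrix protein typical of fibroblasts, gave 0 UMIs in the library labelled control, where the limit of 3 counts would be 6.55 CPM, and 32 UMIs (23.3 CPM) in the library labelled cKO, in a class where fibroblast markers summed to 186 and 513 CPM.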

How the data were processed

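The authors deposited unfiltered UMI counts per gene and barcode, with no normalization. The program was Cell Ranger, of version 4 per the file headers and of 6.1.1 per the submitters' processing notes, which also name mm10. Of the 32285 gene identifiers 99.6% were found in GENCODE vM21. Cells were filtered at 1000 UMIs, 500 genes and 20% mitochondrial UMIs. Scrublet's automatic threshold marked 4 of 7076 cells (0.0565%), so it did not work here. These 4 were removed, and doublets must be assumed to remain.

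Cells of both libraries were clustered in 1 run of scanpy 1.11.5 (2000 variable genes, 30 components, 15 neighbours, Leiden resolution 1 with igraph 0.11.9), with basement membrane and other matrix genes kept out of the variable genes and no batch correction. A cluster was called X-like when at least 3 markers of the type had a UMI in at least 25% of its cells and at 2 times the median cluster. Clusters 13 (under 3 markers) and 22 (deep, with markers of mixed types) stayed unnamed and hold 4.44% and 8.79% of the cells of the libraries labelled control and cKO.

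UMIs were summed per library and class. Intervals are exact Poisson (levels), Clopper-Pearson (shares) and exact conditional (ratios), from scipy 1.17.1. Only the ratio intervals were run on simulated counts, for smooth muscle-like and fibroblast-like cells. Those counts were drawn with Poisson error alone, so the run checks the code and not the spread between cells or mice. Empty droplets were barcodes with 10 to 100 UMIs. The contamination share used in 1 alternative, 7.16% and 12.1%, was estimated in T or NK cell-like cells. All UMIs of epithelial, smooth muscle and fibroblast markers there were taken as free RNA. It is thus an upper estimate for that class and can be too low for others. The 10 genes and all lists were chosen with earlier results of these data known. All 10 are reported in each class. From each list of other basement membrane genes the highest and lowest kept ratio is named in the smooth muscle-like, fibroblast-like, epithelium-like and endothelium-like classes, and for each of the 10 genes the 3 most like it. Where this rule gave an item withheld from the text, it is not reported here. Alternatives were other pseudocounts, scaling, filters, resolutions, doublet removal, free RNA subtraction, thinning, left-out clusters and within-cluster means.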

Additional observations from a re-analysis of the deposited data

Results flagged for a closer look

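Among the 10 genes, 3 had ratios of opposite sign in different cell classes, each with an interval that leaves out 0; the differences between classes were not tested. Over all genes kept in at least 2 classes, 34.3% of 10191 had such a pair, and 3 of the 9 so kept among the 10 did, a share near that background. Col18a1 was higher in fibroblast-like cells (1.89) and lower in lymphatic endothelium-like cells (-0.58), a gap of 2.46 on the log2 scale, and the former was -0.08 without clusters drawn over 90% from 1 library. Col4a5 was higher in mesothelium-like cells (0.75) and lower in smooth muscle-like cells (-0.95), a gap of 1.70. Col4a2 was higher in dendritic cell-like cells (1.06) and lower in lymphatic endothelium-like cells (-0.46), a gap of 1.52, and the former was -0.15 with the highest doublet scores removed.

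Droplets without cells, which entered no level or ratio of a cell class except where free RNA was subtracted, held 4 of the 10 genes at a level whose interval lies above that in the library labelled control, where 17.4% of 7662 genes with a mean of at least 10 CPM did. Lama5 lay below it, at 15.3 CPM (8.88 to 24.4) against 256 CPM (233 to 281), as did 12% of those genes. In the library labelled cKO they held 188 CPM of Col4a1 (164 to 216) against 55.4 CPM (44.9 to 67.7), and 84.3 CPM of Col4a2 (68.2 to 103) against 27.7 CPM (20.4 to 36.8). They held 32.3 CPM of Lamb1 (22.6 to 44.7) against 9.82 CPM (5.72 to 15.7), and 95.1 CPM of Hspg2 (77.9 to 115) against 35.2 CPM (26.9 to 45.3).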

How the results depend on the processing

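Of 60 ratios of single genes, in single classes or over all cells, 30 kept their sign under all alternatives run. Alternative values numbered 920 and included levels of single genes as well as these ratios. Of them 737 moved by less than counting error, 175 moved by more, and 8 changed sign from a ratio past 2-fold (sign changes of smaller ratios are counted among the others). The median over the 10 genes in smooth muscle-like cells, -0.07, stayed between the median lower limit and the median upper limit of the 10 single ratios. That span is not a counting interval of the median. Their count past 2-fold there was 2 instead of 1 with a pseudocount of 1 CPM, median of ratios scaling, free RNA subtracted, thinned cells, within-cluster means, a threshold of 1.5-fold, and without clusters drawn over 80% from 1 library (an alternative chosen after seeing the data), and 0 with a pseudocount of 20 CPM. In fibroblast-like cells the median of 0.18 became 0.077 with median of ratios scaling and 0.29 with free RNA subtracted. The count past 2-fold was 0 instead of 1 without clusters drawn over 90% or over 80% from 1 library, with thinned cells and with within-cluster means, and 2 at 1.5-fold. At 1.5-fold 25.5% and 7.53% of all kept genes are past the limit in these 2 classes. Col18a1 in fibroblast-like cells turned to -0.076 without clusters drawn over 90% from 1 library, and likewise at over 80%. Col18a1 in epithelium-like cells was -0.073 with thinned cells. Lama5 in lymphatic endothelium-like cells was 1.13 at resolution 2 and 0.26 with the highest doublet scores removed, and in mesothelium-like cells 2.90 with thinned cells. Col4a2 in dendritic cell-like cells was -0.15 with the highest doublet scores removed and 0 with thinned cells. Lama5 in epithelium-like cells was -0.27 without clusters drawn over 90% from 1 library. Col4a1 and Col4a2 in smooth muscle-like cells were -0.44 and -0.50 with thinned cells. The causes of these changes were not tested. No paired analysis was possible because each group has 1 library and the labels give no replicate numbers, and no replicate could be left out. Ratios in lymphatic endothelium-like and mesothelium-like cells rest on 31 cells in 1 of the libraries.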

Other observations

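Small and unnamed groups of cells also held these genes. Neutrophil-like cells of the library labelled cKO (31 cells) gave 6 Col15a1 UMIs, 80.1 CPM (29.4 to 174), and 0 UMIs of Col4a1. B cell-like cells gave 1 Lamc1 UMI in 24 cells of the library labelled control and 20 UMIs (60.4 CPM, 36.9 to 93.3) in 28 cells of the library labelled cKO, and 0 UMIs of Col4a1 in both. The class differed in makeup between libraries: plasma cell markers summed to 89.7 and 39703 CPM (5 of 5 higher), B cell markers to 1495 and 764 CPM and fibroblast markers to 7.48 and 411 CPM. Their part in the Lamc1 difference was not tested. Cluster 22, which was left unnamed because it was deep and carried T or NK cell markers beside fibroblast markers, held 436 and 691 CPM of Col4a1 in its 24 and 26 cells, and 0 UMIs of Lama5 in both libraries.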
